A study of Mus musculus with 8 samples.

Results

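Smooth muscle myosin and the subunits that control its phosphatase are represented here by 4 genes, Myh11, Myl9, Ppp1r12b and Ppp1r14a. They were picked by symbol, through the Ensembl identifiers of the deposited table, and all 4 of 4 were found among its 1329 genes. The RNA came from ascending aortas of mice. All mice of both groups were Fbn1mgR/mgR, a genotype which lowers the expression of the microfibril protein fibrillin-1 and serves as a model of Marfan syndrome. Of the 8 libraries, 4 were from mice dosed by mouth with DT-061 at 5 mg/kg, given 2 times daily for 4 weeks beginning at 5 weeks of age. The other 4 were from mice that received only the vehicle on this schedule, a solution of N,N-dimethylacetamide, Kolliphor HS-15 and water. DT-061 is a small molecule that activates protein phosphatase 2A. Mice without the mgR allele of Fbn1 and untreated mice were not analysed here. No label says that each library came from a separate mouse, so the p-values measure the spread between these libraries, which may in part be technical.

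In smooth muscle, pairs of myosin heavy chains carry regulatory and essential light chains, and force is switched on when myosin light chain kinase phosphorylates the regulatory chain. Myosin phosphatase, a protein phosphatase 1 catalytic subunit held on myosin by a targeting subunit, removes that phosphate. It is an enzyme distinct from protein phosphatase 2A. In the aorta these proteins belong to the contractile apparatus of the medial smooth muscle cell, and human MYH11 is a known gene of familial thoracic aortic aneurysm.

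Myh11 encodes the smooth muscle myosin heavy chain (ENSMUSG00000018830, GRCm38 chromosome 16, 14194535 to 14291372, minus strand). Myl9 encodes the regulatory light chain of smooth muscle myosin (ENSMUSG00000067818, chromosome 2, 156775420 to 156781658, plus strand). Ppp1r12b encodes MYPT2, a targeting subunit of myosin phosphatase best known from striated muscle (ENSMUSG00000073557, chromosome 1, 134754658 to 134955942, minus strand). Ppp1r14a encodes CPI-17, which inhibits myosin phosphatase once protein kinase C has phosphorylated it (ENSMUSG00000037166, chromosome 7, 29289308 to 29293801, plus strand). All 4 are protein coding and lie on different chromosomes.

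The sequence upstream of each start site is given where RefSeq (GRCm38.p6) provides it. RefSeq windows were available for Myl9, Ppp1r14a and Ppp1r12b. The windows are read 5′ to 3′ on the gene's strand and end before the first annotated base of the gene. Capitals mark the CArG box, the motif bound by serum response factor, and the GC box, GGGCGG on either strand. These motifs, the TATA box TATAAA and the E box CANNTG were searched on both strands over the 250 bases before each RefSeq start, and no matches of different motifs overlapped. Where a capital stands alone at the end of a line, the motif continues into bases not shown.
Myl9, chr2:156775214-156775407, plus strand: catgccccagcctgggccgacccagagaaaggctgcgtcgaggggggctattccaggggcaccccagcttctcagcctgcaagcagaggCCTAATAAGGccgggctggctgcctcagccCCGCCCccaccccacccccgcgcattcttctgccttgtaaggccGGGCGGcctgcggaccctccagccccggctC
Ppp1r14a, chr7:29289070-29289307, plus strand: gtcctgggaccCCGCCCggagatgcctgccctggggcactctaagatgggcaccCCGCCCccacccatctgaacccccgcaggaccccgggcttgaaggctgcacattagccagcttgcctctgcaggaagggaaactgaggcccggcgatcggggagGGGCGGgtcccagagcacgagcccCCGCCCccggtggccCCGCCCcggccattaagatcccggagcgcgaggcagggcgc
Ppp1r12b, chr1:134955964-134956190, minus strand: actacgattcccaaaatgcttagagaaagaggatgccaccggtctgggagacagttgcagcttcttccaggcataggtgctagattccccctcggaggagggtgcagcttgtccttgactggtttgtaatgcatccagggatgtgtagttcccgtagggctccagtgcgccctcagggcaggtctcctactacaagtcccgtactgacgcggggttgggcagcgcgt

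The Myl9 window held 1 CArG box, 161 to 152 bases before the start, and 3 GC boxes. Among all 32851 RefSeq windows of the same length, 1.47% held a CArG box and 32.7% a GC box, while 12.4% held a TATA box and 66.2% an E box. Ppp1r14a had 5 GC boxes and no CArG box. Neither motif was found in the Ppp1r12b window, nor in the window of a second RefSeq start inside that gene. An E box occurred in the windows of Ppp1r14a and Ppp1r12b, and a TATA box in none. These matches describe letters, and no binding was measured.

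Myh11, Myl9, Ppp1r12b and Ppp1r14a were all higher with DT-061, by 1.45-fold to 2.02-fold in mean FPKM (fragments scaled to gene length and library depth, the unit deposited by the authors). In all 4, every DT-061 library lay above every vehicle library. By limma on log2(FPKM + 1), fitted on the whole table with Benjamini-Hochberg adjustment over its 1329 genes and a threshold of 0.05, all 4 rose. Of all genes in the table, 30.4% rose by this rule, and 30.1% were higher with no overlap between the groups. The deposited name of the table says that it holds genes significant between these groups, so each of the 4 had already been selected on this contrast, and the tests describe size and spread and are not independent evidence. In bulk tissue, fewer cells of a type and less RNA per cell cannot be told apart.

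Myh11 had 993, 916, 1356 and 944 FPKM in DT-061 libraries 1 to 4, against 504, 728, 575 and 611 FPKM in vehicle libraries 1 to 4. DT-061 library 3 was well above the other DT-061 libraries, which lay close together. The means were 1052 ± 205 FPKM with DT-061 and 605 ± 93.6 FPKM with vehicle (SD, n = 4 each), a 1.74-fold difference. On the log2 scale the change was 0.79 ± 0.17 (SE; limma adjusted p = 0.016).

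Myl9 had 2971, 2578, 4900 and 2893 FPKM in the DT-061 libraries, against 1288, 1870, 1608 and 1837 FPKM in the vehicle libraries. Library 3 again stood far above the rest of its group, at 1.74 times the mean of the other 3. Mean levels were 3336 ± 1057 FPKM with DT-061 and 1651 ± 269 FPKM with vehicle (SD, n = 4 each), or 2.02-fold, and on the log2 scale Myl9 rose by 0.98 ± 0.22 (SE; limma adjusted p = 0.016). Without DT-061 library 3 the fold difference was 1.70 and the log2 value 0.78 (limma adjusted p = 0.021).

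Ppp1r14a, the phosphatase inhibitor gene, had 458, 416, 596 and 451 FPKM in the DT-061 libraries, against 188, 374, 286 and 347 FPKM in the vehicle libraries. The gap between the groups was narrow, since the lowest DT-061 value was 1.11 times the highest vehicle value, and vehicle library 1 was far below the other vehicle libraries. The means were 480 ± 79.4 FPKM with DT-061 and 299 ± 82.4 FPKM with vehicle (SD, n = 4 each). On the log2 scale this 1.61-fold difference was 0.72 ± 0.23 (SE; limma adjusted p = 0.022). Its call ended without DT-061 library 3, at 0.61 (limma adjusted p = 0.051), and the change was 0.51 without vehicle library 1.

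Ppp1r12b, the targeting subunit gene, had 93.6, 85.1, 79.6 and 90.5 FPKM in the DT-061 libraries, against 50.9, 59.4, 64.3 and 66.6 FPKM in the vehicle libraries. DT-061 library 3, the highest of its group for the other 3 genes, was here the lowest. The group means were 87.2 ± 6.18 FPKM with DT-061 and 60.3 ± 6.93 FPKM with vehicle (SD, n = 4 each), or 1.45-fold. The log2 change, 0.53 ± 0.11 (SE; limma adjusted p = 0.014), was the smallest of the 4 and had the smallest error.

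For each of the 4 genes, the exact two-sided permutation test of the group means gave p = 0.0286, unadjusted, which is the smallest value that 4 against 4 libraries allow. Ordered by log2 change among the 1329 genes of the table, Myl9 was at rank 13, Myh11 at 34, Ppp1r14a at 54 and Ppp1r12b at 168. The median log2 change of the 4 was 0.75. Over all genes of the table it was -0.58, and over the 404 that rose it was 0.49.

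The scaling of the libraries set the size of these values but did not end a call. Both scalings tried used only the genes of the table, of which 65.0% fell, and moved the median change of all genes up. A rise that kept its call with them is thus no added support. With libraries rescaled to share 1 median FPKM over these genes, which moved the median change of all genes by 0.69, Myh11 changed by 1.64, Myl9 by 1.83, Ppp1r14a by 1.57 and Ppp1r12b by 1.37. Relative to that shift the changes were 0.96, 1.15, 0.88 and 0.68. The 1 added before the log damps the shift of low genes, so these differences do not show a larger rise than the deposited values. Quantile normalization moved the median by 0.56 and gave 0.63 for Myh11, 0.74 for Myl9, 0.83 for Ppp1r14a and 0.54 for Ppp1r12b. Relative to that shift they were 0.07, 0.18, 0.28 and -0.01. No single shift applies to all genes with quantile normalization, so these differences do not show whether a gene rose. Quantile normalization gives genes of the same rank the same value in every library, so a gene can change only by changing rank. For the most abundant genes few ranks lie above, though Myl9 still changed by 0.74. Of all genes, 434 rose and 299 fell with the median rescaling, and 394 rose and 209 fell with quantile normalization, against 404 and 864 with FPKM as deposited.

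**Figure D1:**
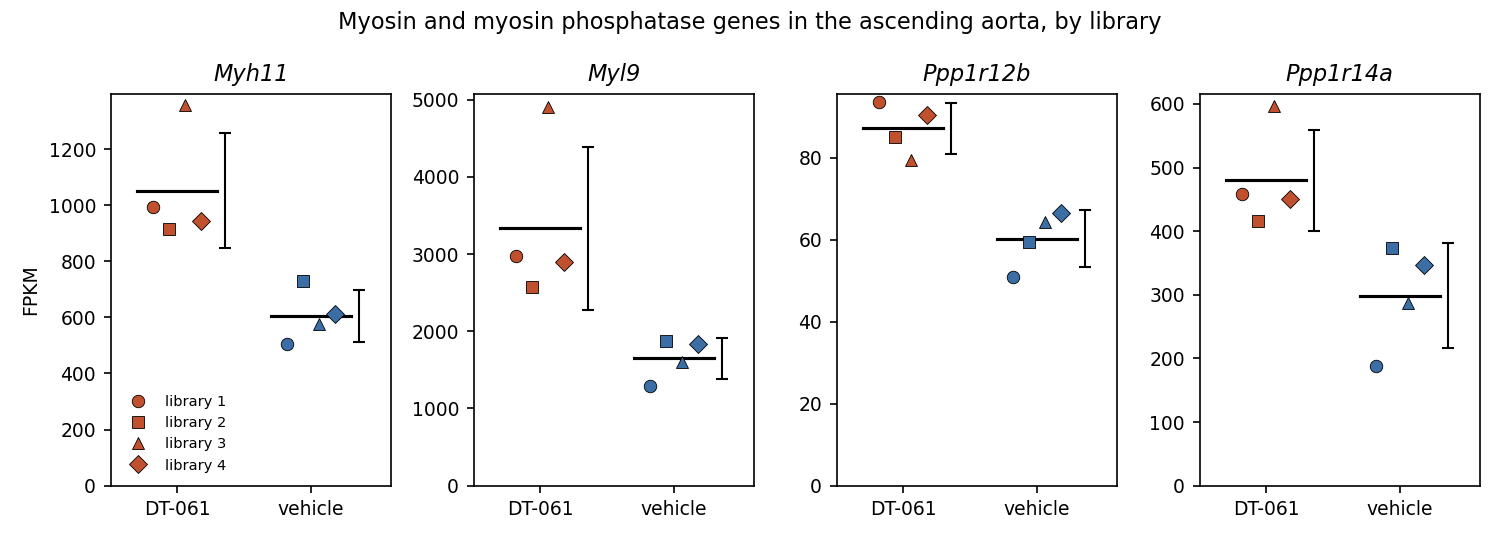
FPKM of Myh11, Myl9, Ppp1r12b and Ppp1r14a in each library, with DT-061 left of vehicle in each panel; symbols mark the library number, horizontal lines the group mean and bars the SD (n = 4 each). The groups do not overlap in any panel, and DT-061 library 3 (triangle) is highest for Myh11, Myl9 and Ppp1r14a and lowest for Ppp1r12b.

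Within each library the order of levels was Myl9, Myh11, Ppp1r14a and Ppp1r12b, in 8 of 8 libraries. FPKM is a level per length of gene, so these levels can be set side by side. By mean FPKM over the 8 libraries, Myl9 ranked 4, Myh11 12, Ppp1r14a 25 and Ppp1r12b 112 among the 1329 genes. The exons of Ppp1r12b cover 14983 bases in the GENCODE M21 annotation, whereas its longest transcript has 8840, so a level per exonic base understates the level per transcript more than for Myh11 (7599 and 6549 bases). The depths by which the libraries were scaled, recovered from the FPKM values, were 14100000 to 22200000 fragments, to 3 significant digits. The labels do not say which fragments these depths count. With exonic lengths from GENCODE, the depths correspond to an estimated 62000 to 149000 fragments per library for Myh11, 24200 to 82600 for Myl9, 12400 to 20200 for Ppp1r12b and 4170 to 11800 for Ppp1r14a.

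Myl9 has close relatives, Myl12a and Myl12b, which encode regulatory light chains used in most cells and whose reads could be mistaken for those of Myl9. Their coding sequences were 85.5% and 86.3% identical to that of Myl9, and the longest identical run was 35 bases for each. The first 90 coding bases, which encode the end of the protein that the kinase phosphorylates, show how they differ. They were read 5′ to 3′ from GENCODE M21 transcripts, and capitals mark bases that differ from Myl9.
Myl9, chromosome 2: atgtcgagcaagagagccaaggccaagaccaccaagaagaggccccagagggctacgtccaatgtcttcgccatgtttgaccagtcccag
Myl12a, chromosome 17: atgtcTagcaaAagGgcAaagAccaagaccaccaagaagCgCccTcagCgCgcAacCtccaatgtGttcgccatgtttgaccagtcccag
Myl12b, chromosome 17: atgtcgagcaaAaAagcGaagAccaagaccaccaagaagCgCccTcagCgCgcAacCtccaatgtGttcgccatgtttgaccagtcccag

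In this stretch 13 bases of Myl12a and 12 of Myl12b differ from Myl9. No stretch of 150 bases, the length of 1 read, of any annotated Myl9, Myh11 or Ppp1r14a transcript occurs in a transcript of another gene. For Ppp1r12b, 1.49% of such stretches do, all shared with the antisense gene Gm28892, whose exons overlap 4.74% of the exonic bases of Ppp1r12b. The sources used here do not say whether counting used strand, so reads from that overlap cannot be told apart. Myl12a and Myl12b themselves were not analysed here.

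The members were next compared with each other inside each library, because such a difference hardly depends on 1 scaling factor per library, though it can change with quantile normalization. Myl9 exceeded Ppp1r12b by 4.97, 4.90, 5.93 and 4.98 log2 units in DT-061 libraries 1 to 4, against 4.63, 4.95, 4.62 and 4.77 in vehicle libraries 1 to 4. In 3 of the 4 DT-061 libraries this difference was above all vehicle values, and library 3 was the farthest out. It was larger with DT-061 by 0.45 ± 0.26 log2 units (SE) (exact permutation p = 0.057, 0.23 after adjustment over 6 pairs). Without DT-061 library 3 it was 0.21, and with quantile normalization 0.19. As deposited this was the largest of the 6 pairwise differences in change, but with quantile normalization Ppp1r14a against Ppp1r12b was larger, at 0.29. Myl9 against Myh11 changed by 0.19 ± 0.10 and Myl9 against Ppp1r14a by 0.27 ± 0.14 (exact permutation p = 0.086 and 0.11). The other 3 pairs changed by 0.08 to 0.26 (exact permutation p of 0.23 to 0.60). Without DT-061 library 3, Myl9 against Myh11 was 0.12, Myh11 against Ppp1r12b 0.09 and Ppp1r14a against Ppp1r12b 0.04, and without vehicle library 1 Ppp1r14a against Ppp1r12b was 0.06. No pair passed after adjustment (0.23 to 0.60), so no difference between the members in the size of their rise was shown. With 4 libraries per group, a single pair at the smallest possible exact permutation p of 0.0286 would not pass after adjustment over 6 pairs. The failure to pass thus does not show that the rises were equal.

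A wider set of contractile genes gave a second yardstick. The list of thin filament and dense body genes (actin, tropomyosin, calponin and the proteins that anchor them) had 18 of its 38 genes in the table, of which 17 rose and 1, the tropomyosin gene Tpm3, fell. Over all genes, 95.4% passed in either direction. Tpm3 was at -0.56 as deposited and at 0.29 with the median rescaling (limma adjusted p = 0.29), which moved the median change of all genes by 0.69. With quantile normalization 12 of the 18 genes rose, and Tagln, Vim, Flna, Csrp1 and Acta2 did not pass. Acta2, the smooth muscle actin gene, had the highest FPKM of the table in all 8 libraries, so its change is 0 there by construction and says nothing of its rise. Among the list, the largest changes were those of the tropomyosin gene Tpm2 (0.86 ± 0.23), the calponin gene Cnn1 (0.80 ± 0.19), the LIM protein gene Pdlim3 (0.75 ± 0.12) and the focal adhesion gene Zyx (0.74 ± 0.12), with limma adjusted p of 0.013 to 0.018. The median log2 change of the 18 was 0.64. The groups did not overlap in 18 of 18, against 78.3% of all genes. Like the members, all 18 had been selected on this contrast, and the listed genes outside the table were not analysed here. The counts and the mean level of the 18 thus describe contractile genes that changed, and do not stand for contractile genes in general.

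Relative to the mean log2 level of these 18 genes in the same library, Myl9 stood 2.99, 2.93, 3.53 and 3.02 units higher in the DT-061 libraries, against 2.55, 2.74, 2.69 and 2.80 in the vehicle libraries. Myh11 stood 1.41, 1.44, 1.68 and 1.41 units higher in the DT-061 libraries, against 1.20, 1.38, 1.21 and 1.21 in the vehicle libraries. For both genes the groups did not overlap. The relative level was larger with DT-061 by 0.42 ± 0.15 for Myl9 and by 0.23 ± 0.08 for Myh11 (SE; exact permutation p = 0.0286 for each, the smallest possible, and 0.057 after adjustment over the 4 genes, which did not pass). With only Myl9 and Myh11 at the smallest possible p, no lower adjusted value could be reached, so this failure to pass was set by the number of libraries. Ppp1r14a gave 0.16 ± 0.16 and Ppp1r12b -0.03 ± 0.12 (exact permutation p = 0.43 and 0.77), with overlapping groups. With quantile normalization Myl9 gave 0.20 and Myh11 0.09 (exact permutation p adjusted over 4 genes 0.34 and 0.57). Without vehicle library 1, Ppp1r14a gave 0.02. The sign for Ppp1r12b turned without DT-061 library 3 (0.08), without vehicle library 3 (0.01) and with quantile normalization. With Tpm3 left out of the list, an alternative added after its value was seen, Myl9 gave 0.36 and Myh11 0.17 (exact permutation p adjusted over 4 genes 0.11 and 0.17).

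**Figure D2:**
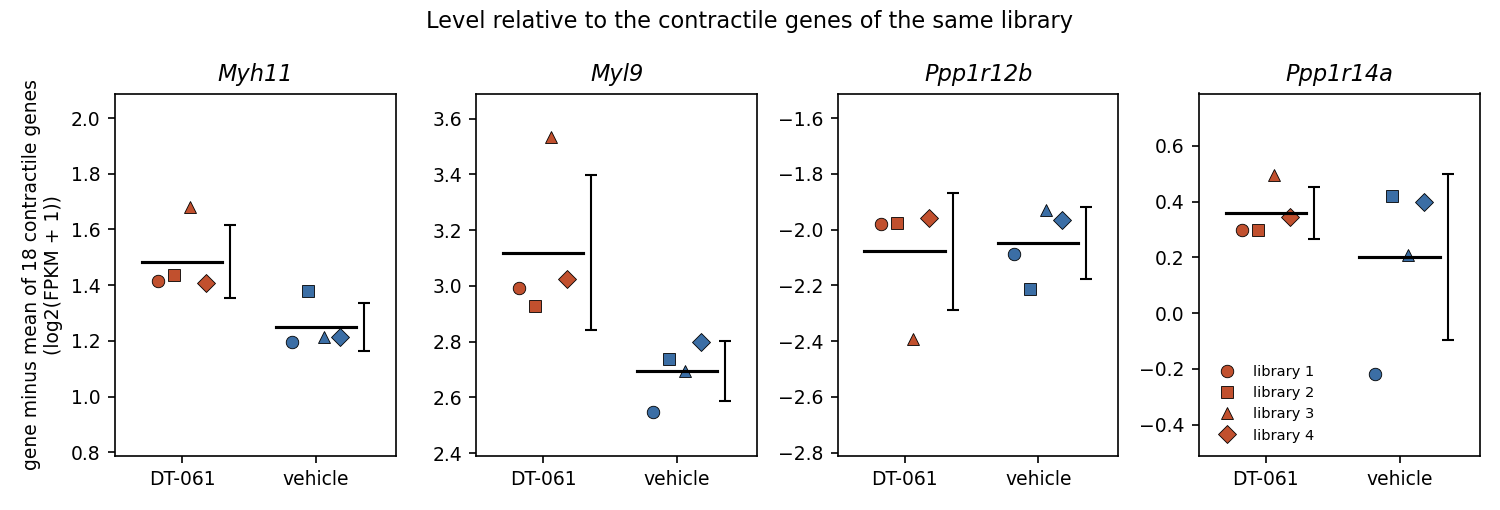
Level of each gene minus the mean of the 18 contractile genes of the same library, in log2(FPKM + 1), with DT-061 left of vehicle; lines are group means and bars the SD (n = 4 each), and all panels span the same range. Myh11 and Myl9 show no overlap between the groups, whereas Ppp1r12b and Ppp1r14a do overlap.

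Deviations from the group mean show which genes varied together from library to library. Over the 8 libraries, with the group means removed, Myl9 and Myh11 correlated at r = 0.95, Myl9 and Ppp1r14a at 0.85 and Myh11 and Ppp1r14a at 0.87. Ppp1r12b had r = 0.04 with Myl9, -0.03 with Myh11 and 0.44 with Ppp1r14a. Without DT-061 library 3, its correlations over 7 libraries were 0.81 with Myl9, 0.50 with Myh11 and 0.78 with Ppp1r14a. The points share their libraries and depth, so these values are descriptions. DT-061 library 3 thus set Ppp1r12b apart from the other 3 genes, and it was also the library with the lowest sum of immune marker genes, given below.

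**Figure D3:**
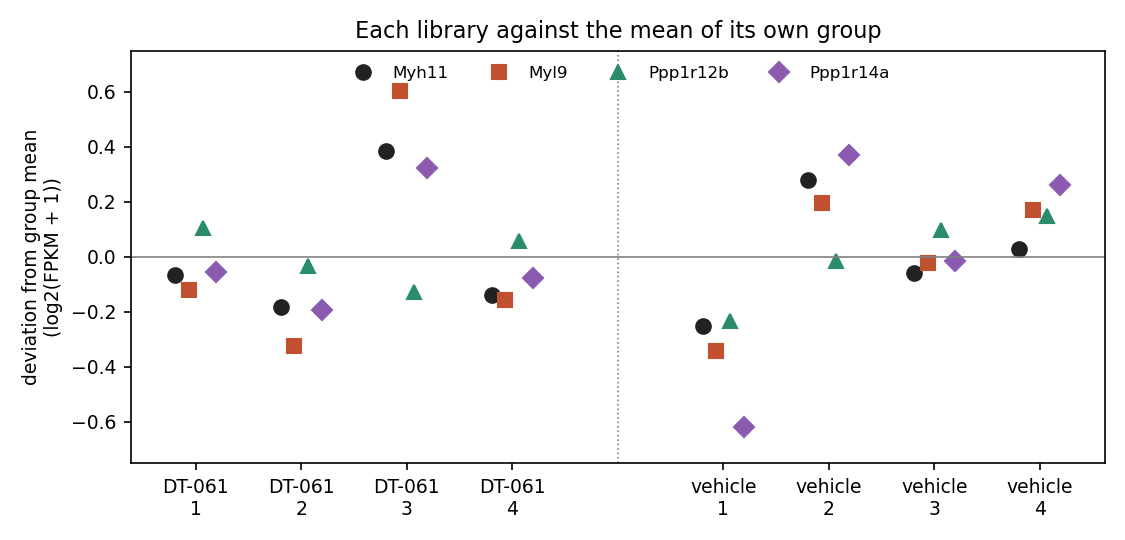
Deviation of each library from the mean of its own group, in log2(FPKM + 1), for the 4 genes, with DT-061 libraries left of vehicle libraries. In DT-061 library 3 Myl9, Myh11 and Ppp1r14a lie above 0 and Ppp1r12b below it, and in vehicle library 1 all 4 lie below 0.

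The genes of the table most like each member in these deviations were named by rank, among the 1005 other protein coding genes whose mean reached 1 FPKM. For Myh11 they were Tpm2 (r = 0.98), the myotonic dystrophy kinase gene Dmpk (0.97) and Smim14 (0.97). Closest to Myl9 were Nxn, which encodes the thioredoxin-like protein nucleoredoxin (0.99), the potassium channel β subunit gene Kcnab1 (0.98) and the sialyltransferase gene St6galnac6 (0.98). Ppp1r14a was most like the flotillin gene Flot2 (0.98), Acta2 (0.97) and the adenylyl cyclase gene Adcy5 (0.97). For Ppp1r12b the values were lower, at 0.94 for Nacad, 0.88 for the caveolin gene Cav1 and 0.88 for the netrin receptor gene Neo1. All 12 of these genes rose, by 0.24 to 0.86 on the log2 scale, but St6galnac6, Smim14, Flot2, Neo1 and Acta2 did not pass with quantile normalization. With quantile normalization none of the 12 was again among the most alike, so the ranking depends on the scaling. Within the contractile list, the highest r was with Tpm2 for Myl9 (0.97) and with the integrin gene Itga8 for Ppp1r12b (0.80).

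Other genes of the myosin pathway were few in the table. Of 71 further genes on the lists of myosin subunits, kinases and calmodulin, myosin phosphatase and protein phosphatase 1, upstream signalling inputs, and serum response factor, 6 were present and the other 65 were not analysed here. Those 6 split evenly, with 3 that rose and 3 that fell (limma adjusted p of 0.016 to 0.030); over all genes 30.4% rose and 65.0% fell. Myl6, the essential light chain gene, had 2984, 2767, 4623 and 2663 FPKM in the DT-061 libraries, against 1805, 2220, 2137 and 2378 FPKM in the vehicle libraries. It rose by 0.58 ± 0.19 (SE; limma adjusted p = 0.024), but with quantile normalization it was at -0.03. Without vehicle library 1 or 3 its call ended, at limma adjusted p of 0.051 each.

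Dapk2, a calmodulin-regulated kinase gene, had 4.90 ± 1.11 FPKM with DT-061 and 3.07 ± 0.63 FPKM with vehicle (SD, n = 4 each) and rose by 0.53 ± 0.19. Its groups overlapped, and its call ended in 5 of the 8 cases with 1 library left out (limma adjusted p of 0.051 to 0.073). Tead3, a transcription factor gene of the Hippo pathway, rose by 0.46 ± 0.11. With quantile normalization its change was as large, at 0.48, but just missed the threshold (limma adjusted p = 0.053). The 3 that fell were low in both groups. Prkcb, a protein kinase C gene, had 1.35 ± 0.64 FPKM with DT-061 and 3.92 ± 2.49 FPKM with vehicle. Pak1, a kinase gene downstream of Rac and Cdc42, had 2.23 ± 0.40 FPKM with DT-061 and 4.37 ± 1.47 FPKM with vehicle. Cit, the citron kinase gene of cell division, had 0.298 ± 0.096 FPKM with DT-061 and 0.655 ± 0.143 FPKM with vehicle (SD, n = 4 each). None of these 3 kept its call with the median rescaling or with quantile normalization, and quantile normalization gave 0.13 for Pak1 and 0.33 for Cit, neither of which passed. Both scalings moved the median change of all genes up, so a call lost there does not show that a gene did not fall.

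**Figure D4:**
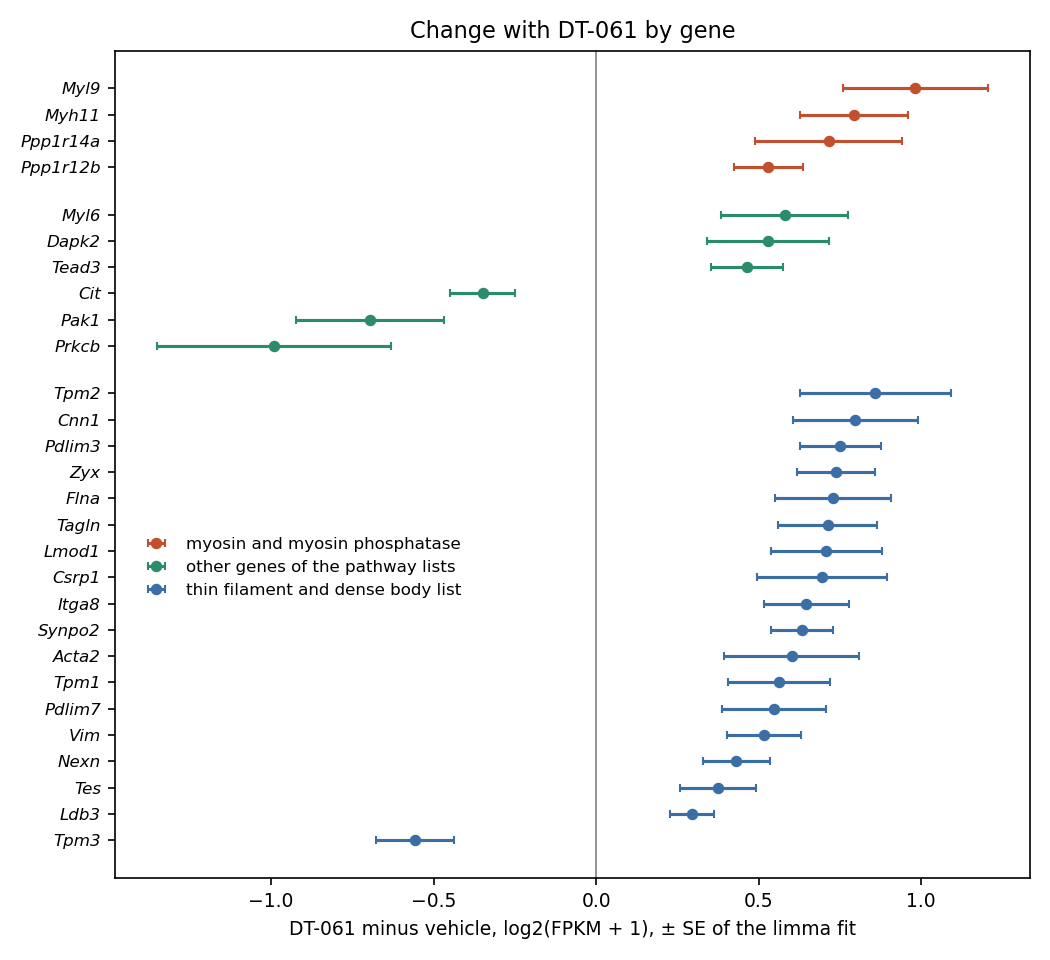
Change with DT-061 (DT-061 minus vehicle, log2(FPKM + 1)) of the 4 members, the 6 further pathway genes and the 18 contractile genes in the table; points are limma estimates and bars their SE. The members lie at 0.53 to 0.98; Myl6, Pak1 and Cit change sign with quantile normalization, Acta2 is at 0 there by construction, and Tpm3 changes sign with the median rescaling.

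Those markers of other cell types that were in the table moved in the opposite direction to these genes. Like the members, they had been selected on this contrast, and the listed markers outside the table were not analysed here. Of 71 immune markers (monocytes and macrophages, T and NK cells, B and plasma cells, neutrophils and mast cells), 28 were in the table, of which 27 fell and 1 did not pass, where 65.0% of all genes fell. Of the 28, 13 showed no overlap between the groups, against 78.3% of all genes. Their summed level was 106 to 260 FPKM with DT-061 and 343 to 4942 FPKM with vehicle. The immunoglobulin gene Igkc alone had 4.05 to 25.5 FPKM with DT-061 and 68.0 to 3238 FPKM with vehicle. DT-061 library 3, the highest for Myh11, Myl9 and Ppp1r14a, had the lowest immune sum, 106 FPKM. Vehicle library 1, the lowest for all 4 members, had the highest, 4942 FPKM. These sums were led by few and different genes. Xbp1 had 49.8 FPKM in DT-061 library 3, whereas Igkc had 3238 and Ighm 694 FPKM in vehicle library 1. Vehicle library 4 had an immune sum of 343 FPKM, close to the DT-061 range, while its values of Myh11, Myl9, Ppp1r12b and Ppp1r14a were all below those of every DT-061 library. With DT-061 library 3 and vehicle library 4 both left out, the log2 changes were 0.67 for Myh11, 0.84 for Myl9, 0.69 for Ppp1r14a and 0.62 for Ppp1r12b, and all 4 passed (limma adjusted p of 0.0056 to 0.035). The immune sums of the remaining libraries were 212 to 260 FPKM with DT-061 and 1149 to 4942 FPKM with vehicle. These lie farther apart than with all libraries, so this setting does not hold immune content equal between the groups. The neutrophil gene S100a9 was listed at 0 in DT-061 library 3 and vehicle library 4. The part of immune cell content in the rise of the 4 genes was not tested.

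Fibroblast markers summed to 192 to 299 FPKM with DT-061 and 437 to 550 FPKM with vehicle, and all 4 of the 15 listed that were in the table fell, among them Ly6a and Lum. With 65.0% of all genes falling, such counts over 1 to 4 genes are near the background, here and for the lists that follow. Of 14 endothelial markers, 2 were in the table, Plvap and Robo4, and both fell (19.1 to 26.0 FPKM summed with DT-061 and 28.7 to 62.5 with vehicle). All 3 of 11 markers of modulated smooth muscle in the table fell (198 to 305 FPKM summed with DT-061 and 404 to 686 with vehicle), though Ly6a and Lum stand on both lists. Of 25 markers of striated muscle, in which Ppp1r12b is also expressed, only the light chain gene Myl1 was in the table, at 1.08 to 2.45 FPKM with DT-061 and 2.64 to 7.71 FPKM with vehicle. The part of striated muscle in the rise of Ppp1r12b was not tested. Of 12 adipocyte markers, Retn was in the table and fell, with 1.69 to 5.81 FPKM with DT-061 and 8.70 to 25.1 FPKM with vehicle. The smooth muscle markers Acta2, at 3458 FPKM or more, and Tagln, at 2727 FPKM or more, were abundant in all 8 libraries.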

How the data were processed

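Poly-A RNA of the ascending aorta was sequenced as paired 150-base reads, per the labels' protocols. The submitters' processing notes name the mm10 build, featureCounts 1.5.0-p3, StringTie 1.3.3b and HISAT2 2.0.5, with no role given. The authors deposited FPKM values, already reduced to 1329 genes; the sources used here give neither the tool nor the threshold of that choice. Symbols (1328 matched), coordinates and exonic lengths came from GENCODE M21 (GRCm38, which is mm10).

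Depth was recovered from low FPKM times exonic length, which are whole multiples of 1 fragment (tolerance 0.03, multiples up to 60). Over genes already whole in at least 3 other libraries, 91.9% to 100% of 37 to 66 values per library were whole at the chosen step; this share is of values picked for being whole.

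The main test was limma 3.58.1 (trend and robust; R 4.3.3) on log2(FPKM + 1), which understates changes of low genes. Differences between genes were tested by exact two-sided permutation (SciPy 1.17.1). No list was tested. Alternatives were limma without those options, another pseudocount (0.1), only genes with a mean of 1 FPKM or more, 2 scalings, the replicate block and left-out libraries. Members, lists and tests were chosen with earlier results of these data known. Genes named were the members, the pathway genes in the table, the 4 contractile genes with the largest change, the 3 most alike genes per member, and the 2 most abundant genes of each marker list, of which not all are described. Tpm3, Acta2, Tagln, Itga8, S100a9 and Xbp1 were added after their values were seen.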

Additional observations from a re-analysis of the deposited data

Results flagged for a closer look

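Several values of DT-061 library 3 lay far from the other 3 libraries of its group, by the size of the gap relative to the range of the group (Dixon's 95% critical value for 4 values). The FPKM values of Myl9 (4900), Myl6 (4623), Nxn (49.9) and Smim14 (58.0) were high in that library. The differences within it of Myl9 minus Ppp1r14a (3.04 log2 units), Myl9 minus Ppp1r12b (5.93), Myh11 minus Ppp1r12b (4.07) and Ppp1r14a minus Ppp1r12b (2.89) were also far above those of the other DT-061 libraries. Relative to the contractile genes, Myh11 (1.68) and Myl9 (3.53) were high and Ppp1r12b (-2.39) was low in the same library. In vehicle library 2, Myh11 relative to the contractile genes (1.38) was high for its group. In all, 12 of the 64 groups of 4 values examined were marked in this way, and chance marks about 1 in 20; the values overlap, since most are differences that share the same genes and library.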

How the results depend on the processing

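Myh11, Myl9 and Ppp1r12b kept their direction and their call under all 15 alternatives, and Ppp1r14a under all but 1. With 1 library left out, the log2 changes ranged from 0.66 to 0.89 for Myh11, 0.78 to 1.09 for Myl9, 0.45 to 0.58 for Ppp1r12b and 0.51 to 0.84 for Ppp1r14a, whose call ended without DT-061 library 3. The groups share replicate numbers, and the correlations of the deviations of same-numbered libraries were 0.18, -0.11, -0.05 and -0.47. Such values from 4 libraries per group cannot settle whether the numbers pair the libraries. With the replicate number as a block, all 4 members kept their calls (limma adjusted p of 0.046 to 0.047), 204 genes of the table rose against 404 without the block, of the 18 contractile genes 14 rose, against 17, and of the further pathway genes 1 rose and 0 fell; of the genes most like a member, St6galnac6, Smim14, Flot2 and Acta2 did not pass with the block. The exact sign-flip test within replicate numbers, which cannot go below 0.125 with 4 pairs, passed for no pair of members.

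Counts over the table moved with the scaling, where 299 genes fell with the median rescaling and 209 with quantile normalization, against 864 as deposited. With 1 library left out, 254 to 351 genes rose. In the contractile list 12 genes rose with quantile normalization and 0 fell with the median rescaling, against 17 that rose and 1 that fell as deposited. Of the further pathway genes, 0 fell with either scaling and 1 rose with quantile normalization; with 1 library left out, 1 to 3 rose and 1 to 3 fell. Quantile normalization turned the change of Myl9 minus Ppp1r14a to -0.10, of Myh11 minus Ppp1r14a to -0.21 and of Ppp1r12b minus the contractile genes to 0.00673, and left 0 of the 12 most alike genes. With 1 library left out, Myh11 minus Ppp1r14a ranged from -0.00115 to 0.20 and Ppp1r12b minus the contractile genes from -0.0835 to 0.0768, so neither has a settled direction. The median rescaling moved the median change of all genes by 0.69 and quantile normalization by 0.56, which by itself leaves fewer falls. The cause of the other moves was not tested. With 4 libraries against 3, the exact test cannot go below 0.057.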

Other observations

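The essential and regulatory light chains of smooth muscle myosin, Myl6 and Myl9, differed in their balance between the groups. The ratio of Myl6 to Myl9 in FPKM was 1.004, 1.07, 0.944 and 0.920 in DT-061 libraries 1 to 4, against 1.40, 1.19, 1.33 and 1.29 in vehicle libraries 1 to 4. Every DT-061 library was below every vehicle library, and the mean ratio was 0.985 ± 0.068 in the DT-061 libraries, against 1.303 ± 0.089 in the vehicle libraries (SD, n = 4 each). This ratio was chosen after its values were seen and was not tested, and Myl6 is also expressed outside smooth muscle. The ratio of Ppp1r14a to Myh11 showed no such separation, with 0.440 to 0.478 in the DT-061 libraries and 0.374 to 0.567 in the vehicle libraries.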
